A study of Mus musculus with 6 samples.

Results

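Adipokines are proteins that fat cells release into the blood or the surrounding tissue. The set described here was a list of 8 mouse genes: leptin (Lep), adiponectin (Adipoq), resistin (Retn), adipsin or complement factor D (Cfd), retinol binding protein 4 (Rbp4), apelin (Apln), angiopoietin-like 4 (Angptl4) and chemerin (Rarres2). Members were chosen by gene symbol, as the probes whose platform annotation gives exactly 1 symbol equal to one of these names. Of the 8 genes 7 had such a probe, 1 probe each, among 18014 genes with a tested probe, and Cfd was not analysed here. The cells were 3T3-L1 adipocytes, made from a clonal mouse preadipocyte line that fills with lipid and takes on fat cell features under an adipogenic mixture. The 3 UCP1 arrays came from 3T3-L1 adipocytes made to express uncoupling protein 1, and the 3 control arrays from 3T3-L1 adipocytes that carried the Tet-off plasmid alone. Tet-off is a tetracycline-regulated expression system. RNA of both groups was taken 10 days after differentiation and hybridised to one-colour CodeLink mouse whole genome arrays. The sources used here do not give whether a group was 1 clone or a pool, whether UCP1 cells also carry the Tet-off plasmid, or whether each array had its own culture. The p-values therefore reflect array-to-array spread alone, and that spread may be technical.

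UCP1 is the brown fat protein that lets protons leak back across the inner mitochondrial membrane, so that fuel is burned for heat. White fat cells signal their lipid store and their metabolic state through adipokines. Leptin is the satiety hormone that acts on the hypothalamus, and adiponectin raises insulin sensitivity in liver and muscle. Several adipokine genes are known targets of PPARγ and of the C/EBP transcription factors, which drive fat cell differentiation, and apelin, leptin and Angptl4 are also known to be induced by low oxygen.

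Intensities are on a linear scale in which each array's median lay between 1.04 and 1.05, so they are relative to the rest of the array. The Ucp1 probe read 2.34, 2.02 and 1.54 on the UCP1 arrays, against 0.222, 0.232 and 0.278 on the control arrays. Ucp1 was higher on every UCP1 array than on any control array (limma, adjusted p = 0.00013), in the direction of the labels. The control readings lay at the level of dim spots, near the 25th percentile of probes with no gene symbol, so no fold is given. The log2 difference was 3.00 as deposited and 2.35 when 0.171 was first added to every intensity. Of 36116 tested probes 2.83% passed the threshold (limma, adjusted p under 0.05), 0.800% higher and 2.03% lower in UCP1. The 3 UCP1 arrays lay wholly above the controls on 7.88% of probes and wholly below on 14.0%, together 21.9%. The median log2 difference was -0.060 over all tested probes. Among the 262 probes with a mean intensity of at least 300 it was -0.21 for the 87 with 1 gene symbol and -0.52 for the 175 without. The array maximum was 683 on UCP1 array 3 and 921 to 950 on UCP1 arrays 1 and 2, against 932 to 943 on the controls.

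Of the 7 adipokines, Lep rose, Apln fell, and the other 5 did not pass the threshold. Over all 18014 genes 1.13% were called higher and 2.92% lower in UCP1. The members' median log2 difference was -0.23 with 6 of 7 below 0, beside -0.083 and 60.1% below 0 over all 18014 genes, each taken by its brightest probe. In addition to the called pair, Angptl4 and Rbp4 read lower on every UCP1 array than on any control array. Thus 3 of 7 members lay wholly below the controls and 1 lay wholly above, beside 14.0% and 7.88% of all tested probes. Adipoq, Retn and Rarres2, whose probes are bright, overlapped between the groups. In whole cultures, fewer cells making a hormone and less of its RNA per cell cannot be told apart.

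The start-site windows of the 2 adipokine genes that passed the test are shown. They are among the places where transcription factors can act on a gene, and sequence outside them was not searched. RefSeq sequence (GRCm38.p6, 250 bases before to 50 after the start) was found for 6 of the 8 genes. Both are written 5′ to 3′ along the gene. Capitals mark matches to any motif searched, on either strand. The motifs were the full C/EBP site TTGCGCAA, its looser form TTGCNNAA, which also covers the full site, the hypoxia-inducible factor core ACGTG, the TATA box TATAAA, the GC box GGGCGG, and the PPAR direct repeat, AGGTCA written again after any 1 base.
Lep, chr6:29059971-29060270, plus strand: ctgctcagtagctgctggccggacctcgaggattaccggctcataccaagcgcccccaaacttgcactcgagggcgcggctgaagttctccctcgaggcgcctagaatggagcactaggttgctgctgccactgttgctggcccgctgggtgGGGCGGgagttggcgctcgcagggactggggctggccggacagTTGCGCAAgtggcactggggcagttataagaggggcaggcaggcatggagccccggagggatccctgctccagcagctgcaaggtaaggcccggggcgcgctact
Apln, chrX:48034804-48035103, minus strand: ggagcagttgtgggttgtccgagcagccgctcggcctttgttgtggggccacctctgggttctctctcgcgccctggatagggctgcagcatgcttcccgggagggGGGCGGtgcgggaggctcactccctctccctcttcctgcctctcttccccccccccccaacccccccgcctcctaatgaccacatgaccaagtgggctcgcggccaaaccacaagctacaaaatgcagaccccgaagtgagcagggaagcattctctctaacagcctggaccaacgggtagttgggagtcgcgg
The Lep window held the full C/EBP site from -55 to -48 relative to the start and a GC box from -98 to -93. The full site occurs in 0.183% of 32851 windows of this length, and the looser form in 10.8%. The Apln window held 1 GC box, from -144 to -139, a motif found in 35.7% of windows. Neither window held the letters of the hypoxia core (19.6% of windows) or of the PPAR repeat (0.0396%), which says only that these letters are not in these windows.

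Lep read 3.10, 1.84 and 2.52 on the UCP1 arrays, against 1.22, 1.18 and 1.15 on the control arrays. All UCP1 readings lay above all controls, and the UCP1 arrays differed among themselves far more than the controls did. The mean was 2.49 ± 0.629 in UCP1 adipocytes and 1.19 ± 0.0367 in control adipocytes (SD, n = 3 each). Lep thus rose 2.05-fold (limma, adjusted p = 0.0153), with a 95% interval of 0.63 to 1.44 for the log2 difference and an SE of 0.187. The leptin probe was of middle brightness, above 60.9% to 68.0% of the probes of each UCP1 array and 51.8% to 52.8% of those of each control array. Its control readings thus lay near the array median, and whether they exceed background was not tested. With 0.171 first added to every intensity the log2 difference was 0.94. Lep was higher under all 18 alternative settings, by 0.86 to 1.24, and was called in 15 of them. The call ended without UCP1 array 3, where the difference was 1.01 (adjusted p = 0.117), in limma fitted without an intensity trend (0.233) and in a test of each probe on its own spread (0.245). Between 0.5 and 2 in mean intensity, the range that holds the Lep probe, 1.85% of 9065 probes were called.

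Apln encodes a secreted peptide that acts on the receptor Aplnr and is known for widening blood vessels and promoting their growth. Its probe read 29.5, 11.99 and 14.9 on the UCP1 arrays, against 36.8, 33.2 and 40.2 on the control arrays. UCP1 array 1 stood close to the controls, while arrays 2 and 3 read less than any control by a wide margin. The mean was 18.8 ± 9.40 in UCP1 adipocytes and 36.7 ± 3.48 in control adipocytes (SD, n = 3 each). Apln fell by 1.07 ± 0.255 (SE) in log2 terms, a 2.10-fold difference, and passed narrowly (limma, adjusted p = 0.0475). The difference was below 0 under all 18 alternatives, from -1.45 to -0.80, but it was called in only 8 of them. It was -1.45 without UCP1 array 1 (adjusted p = 0.0016), and the call ended without any 1 of the other 5 arrays (adjusted p = 0.0594 to 0.244). It also ended without the intensity trend (adjusted p = 0.313), in the test of each probe on its own spread (0.385), and after quantile normalization (-0.94, adjusted p = 0.0597), cyclic loess (-0.93, adjusted p = 0.0642) and robust eBayes (adjusted p = 0.149). Between 10 and 50 in mean intensity, where the Apln probe lies, 6.72% of 4450 probes were called.

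Angptl4 encodes a secreted inhibitor of lipoprotein lipase, the enzyme that frees fatty acids from circulating triglyceride. It read 137, 142 and 113 on the UCP1 arrays, against 199, 205 and 185 on the control arrays. The groups did not overlap. Its mean was 131 ± 15.2 in UCP1 adipocytes and 196 ± 10.4 in control adipocytes (SD, n = 3 each). The log2 difference was -0.59 ± 0.159 (SE), a ratio of 0.663, short of the threshold (limma, adjusted p = 0.0717). Its 95% interval, which is not adjusted for the number of probes, ran from -0.94 to -0.25. It passed in 5 of 18 alternatives, among them without UCP1 array 1 (adjusted p = 0.0343), with array weights (adjusted p = 0.0341) and among probes no dimmer than the median (adjusted p = 0.0264). The difference was smaller after quantile normalization, -0.37, and after cyclic loess, -0.35. The 1207 probes between 100 and 300 in mean intensity had a median of -0.20, with 1.49% called.

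Rbp4 encodes the plasma carrier of retinol, which fat cells release along with the liver. It read 0.334, 0.217 and 0.354 on the UCP1 arrays, against 0.370, 0.409 and 0.487 on the control arrays. These are dim readings, above 15.3% to 29.3% of the probes on the UCP1 arrays and 30.3% to 35.8% on the control arrays. The groups did not overlap, but UCP1 array 3 lay just below control array 1. The log2 difference was -0.51 ± 0.341 (SE) and was not called (limma, adjusted p = 0.502), with a 95% interval from -1.25 to 0.24. The 25th percentile of probes with no gene symbol was 0.232 to 0.264 on the UCP1 arrays and 0.257 to 0.268 on the control arrays, so Rbp4 lay near the readings of dim spots.

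**Figure D1:**
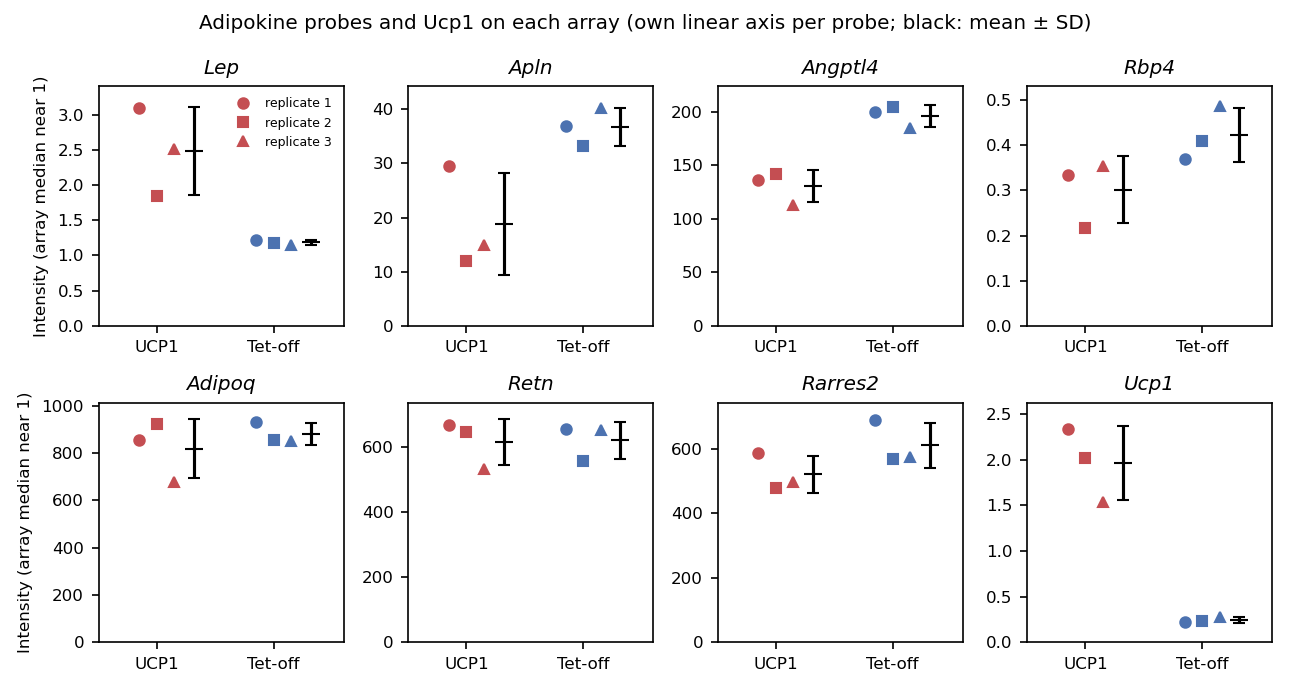
Intensity of each adipokine probe and of Ucp1 on the 3 UCP1 arrays (red, left) and the 3 Tet-off control arrays (blue, right), each probe on its own linear axis, with marker shape for replicate number and black bars for mean ± SD. Lep and Ucp1 were higher on every UCP1 array, Apln, Angptl4 and Rbp4 lower, and Adipoq, Retn and Rarres2 overlapped.

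Adiponectin was at the top of the scale in both groups. Adipoq read 855, 921 and 679 on the UCP1 arrays, against 932, 855 and 852 on the control arrays, and it was among the 3 brightest probes of every array. Expressed as a share of the array's own maximum, it stood at 89.95%, 100% and 99.4% on the UCP1 arrays and at 98.9%, 91.7% and 90.5% on the control arrays. The low reading on UCP1 array 3 was thus close to that array's own maximum. The log2 difference of Adipoq was -0.12 ± 0.244 (SE) with a 95% interval from -0.65 to 0.42 (limma, adjusted p = 0.858). The maximum is the reading of the brightest probe, which on UCP1 array 2 was Adipoq itself. If the scale has a ceiling near these readings, a change above it would not appear, and whether it has one was not tested. The sign of the Adipoq difference turned after quantile normalization (0.043), after cyclic loess (0.22) and without UCP1 array 3 (0.014), none of them called.

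Resistin, which impairs insulin action in mice and is made by mouse fat cells, read 668, 646 and 534 on the UCP1 arrays, against 655, 556 and 653 on the control arrays. The groups overlapped throughout. The mean was 616 ± 71.9 in UCP1 adipocytes and 621 ± 56.6 in control adipocytes (SD, n = 3 each), with a log2 difference of -0.016 ± 0.223 (SE) and a 95% interval from -0.50 to 0.47 (limma, adjusted p = 0.981). Its place among the probes did move, since Retn ranked 16, 15 and 9 from the top on the UCP1 arrays, against 99, 109 and 33 on the control arrays. A rank also depends on the other bright probes. The 82 probes with a mean of at least 500 and no single symbol had a median log2 difference of -0.50. Their part in the ranks of Retn was not tested. After quantile normalization, which sets ranks on a common scale, the Retn difference was 0.35 (adjusted p = 0.143), and after cyclic loess 0.30 (adjusted p = 0.228).

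Chemerin, which attracts immune cells through Cmklr1 and takes part in fat cell differentiation, read 586, 478 and 497 on the UCP1 arrays, against 689, 568 and 573 on the control arrays. UCP1 array 1 read above 2 of the 3 controls. The log2 difference of Rarres2 was -0.23 ± 0.218 (SE), with a 95% interval from -0.71 to 0.25 (limma, adjusted p = 0.651). It was 0.15 after quantile normalization and 0.079 after cyclic loess, neither called.

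Among the 29 probes with 1 symbol and a mean intensity of at least 500 the median log2 difference was -0.12, and 1 lay above 0. Of these 29 probes 26 lay below Retn, 14 below Adipoq and 1 below Rarres2, so Adipoq was at the median of the class and Rarres2 near its low end. The 82 probes of this brightness without a single symbol had a median of -0.50. These counts are descriptions with no test. Of the 111 probes with a mean of at least 500, 0 passed with limma, so at this brightness the absence of a call is shared by every probe.

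**Figure D2:**
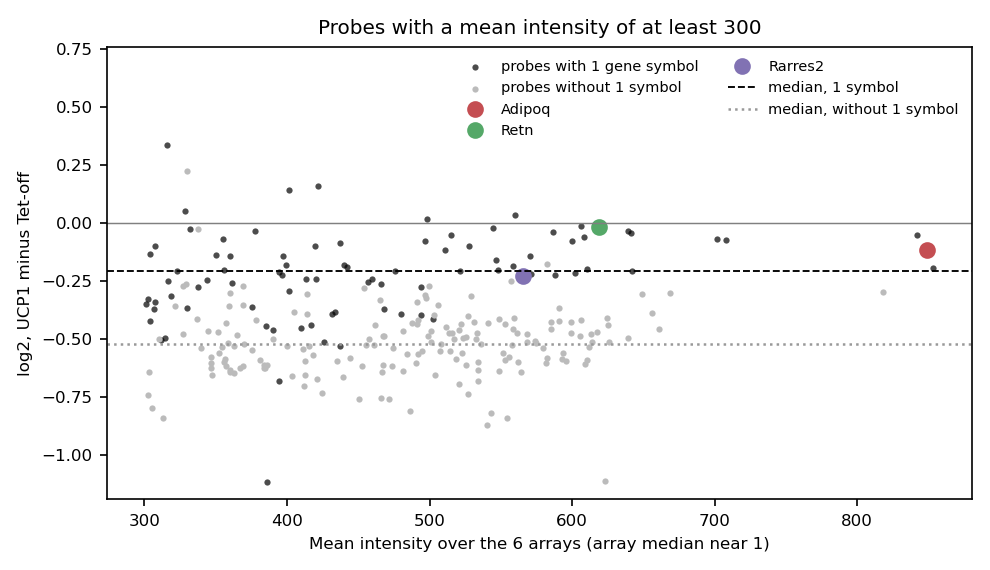
Log2 difference, UCP1 minus Tet-off control, against mean intensity over the 6 arrays for the 262 probes with a mean of at least 300. Black points have 1 gene symbol (87 probes, dashed median -0.21) and grey points do not (175 probes, dotted median -0.52); Retn (-0.016), Adipoq (-0.12) and Rarres2 (-0.23) lie within the spread of the black points.

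No single UCP1 array read highest or lowest for every adipokine. UCP1 array 1 held the highest UCP1 reading of Lep, Apln, Retn and Rarres2, and array 2 the highest of Adipoq and Angptl4. UCP1 array 2 held the lowest UCP1 reading of Lep, Apln, Rbp4 and Rarres2, and array 3 the lowest of Adipoq, Retn and Angptl4. The control arrays were closer to each other. Their coefficient of variation was lower than that of the UCP1 arrays for 6 of the 7 adipokines, by the widest ratios for Lep, at 25.3% in UCP1 and 3.09% in control, and Apln, at 50% in UCP1 and 9.48% in control, the exception being Rarres2 at 11.0% and 11.3%.

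**Figure D3:**
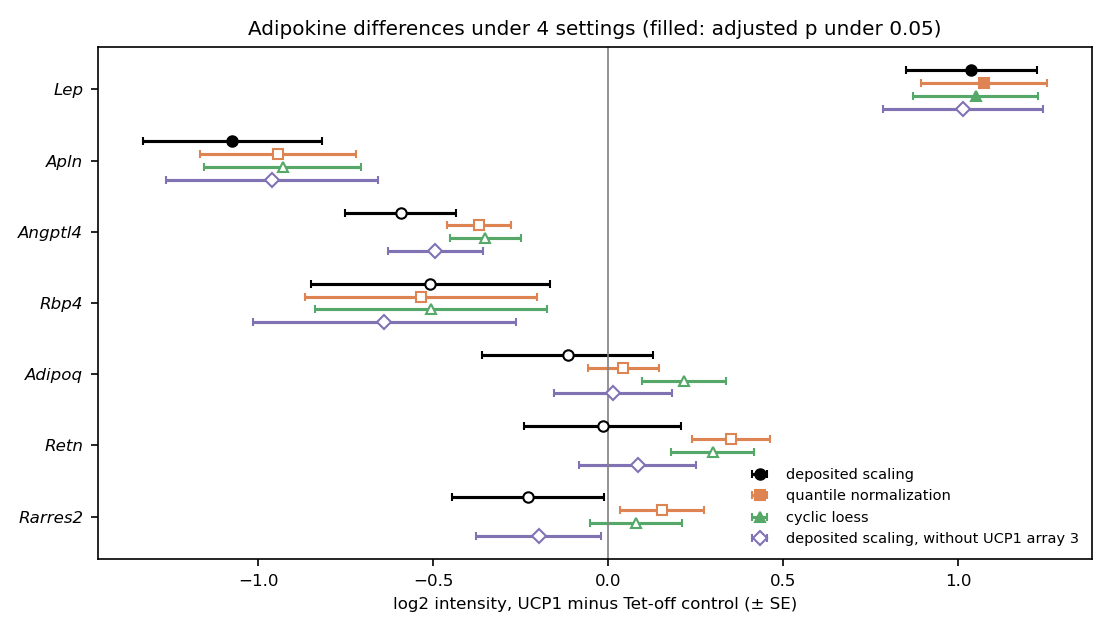
Log2 difference ± SE of each adipokine, UCP1 minus Tet-off control, in the deposited scaling, after quantile normalization, after cyclic loess and without UCP1 array 3; filled markers passed the threshold. Lep stayed near 1 under each, Apln, Angptl4 and Rbp4 stayed below 0, and Adipoq, Retn and Rarres2 lay on both sides of 0.

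Genes that work with the adipokines were taken from 6 lists, with 86 genes measured in all, of which 2 rose and 4 fell. Over all genes 4.05% were called, 1.13% higher and 2.92% lower in UCP1. Of 9 measured receptors 0 passed the threshold with limma, with a median of -0.10. Adipor2, an adiponectin receptor, averaged 108 ± 18.9 in UCP1 adipocytes and 148 ± 19.8 in control adipocytes (SD, n = 3 each), a log2 difference of -0.45 (limma, adjusted p = 0.2), and Cap1, described as a resistin receptor in human monocytes, had -0.59 (limma, adjusted p = 0.196). Of 12 substrates, carriers and proteases 0 passed, with a median of -0.014. Masp1, a complement serine protease whose product MASP-3 activates pro-adipsin, had 0.59 on its brighter probe (limma, adjusted p = 0.0652) and -0.23 on its dim one, and the lysosomal protease Ctsl had -0.40 (limma, adjusted p = 0.119). Lpl, the enzyme that Angptl4 inhibits, had -0.052 and lay near the top of the scale, at 831 ± 145 in UCP1 adipocytes and 853 ± 44.5 in control adipocytes (SD, n = 3 each). Masp1 was called as higher after quantile normalization (0.66, adjusted p = 0.0391) and cyclic loess (0.66, adjusted p = 0.0368).

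Among 8 genes of adiponectin assembly in the endoplasmic reticulum 1 fell and 0 rose, with a median of -0.25. All 8 were below 0, beside 60.1% of all genes. Most of them lay between 10 and 300 in mean intensity, where the brightness classes of all probes had medians of -0.13 to -0.20. After quantile normalization 6 were below 0 and the median of the list was -0.078. The gene that fell was Ero1a, the oxidase that helps to form disulfide bonds and to release assembled adiponectin. It read 30.5, 23.3 and 24.5 on the UCP1 arrays, against 71.7, 54.6 and 97.4 on the control arrays. Every UCP1 reading was less than every control reading, and the gene fell 2.80-fold (limma, adjusted p = 0.00271), with a log2 difference of -1.48 ± 0.192 (SE). The other 2 probes of Ero1a, both dimmer, had 0.26 and 0.13 and were not called.

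Of 25 measured other factors that fat cells secrete 1 rose and 1 fell, with a median of -0.19. The lipocalin Apod, a carrier of small lipids, read 42.2, 40.5 and 35.5 on the UCP1 arrays, against 24.8, 19.3 and 16.8 on the control arrays, and rose 1.96-fold (limma, adjusted p = 0.00727). Nampt, the NAD-synthesis enzyme also released as visfatin, read 40.6, 39.4 and 33.4 on the UCP1 arrays, against 65.0, 57.3 and 64.5 on the control arrays, and fell 1.65-fold (limma, adjusted p = 0.0145). Neither gene overlapped between the groups. The call of Nampt ended without UCP1 array 3 (adjusted p = 0.0787), control array 1 (0.0772) or control array 3 (0.057). After quantile normalization 4 of the 25 were called as higher, adding Ccdc80 at 1.03, Sparc at 0.59 and Ccl2 at 0.55, all secreted proteins named here after their values were seen.

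Of 17 measured relatives of the adipokines 1 rose and 1 fell, with a median of 0.13. C1qtnf12, a secreted adiponectin relative known as adipolin, read 5.24, 5.21 and 4.38 on the UCP1 arrays, against 10.6, 8.95 and 10.3 on the control arrays. It fell 2.02-fold with no overlap (limma, adjusted p = 0.00193) and was called in 16 of 18 alternatives. Rbp7, a cytosolic retinol binding protein of fat and endothelium, read 2.90, 2.49 and 2.77 on the UCP1 arrays, against 1.51, 1.90 and 1.80 on the control arrays. It rose 1.57-fold (limma, adjusted p = 0.0367), a call that ended without any 1 of 5 arrays (adjusted p = 0.0535 to 0.182).

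Among 15 transcription factors known to act on adipokine genes 1 fell and 0 rose, with a median of -0.21. Cebpd, an early factor of fat cell differentiation, read 21.6, 16.5 and 16.4 on the UCP1 arrays, against 41.1, 30.0 and 38.7 on the control arrays, and fell 2.02-fold (limma, adjusted p = 0.00685). All UCP1 readings were lower than all controls, and the call ended without UCP1 array 3 (-0.94, adjusted p = 0.0648).

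**Figure D4:**
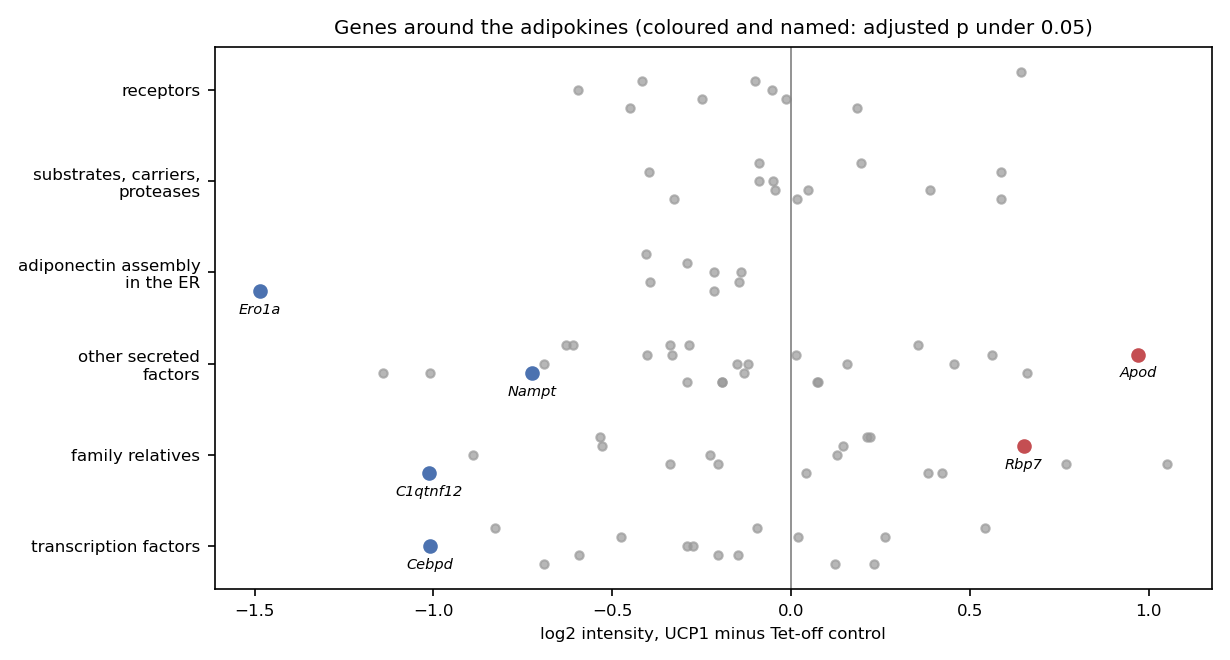
Log2 difference, UCP1 minus Tet-off control, of each measured gene in 6 lists around the adipokines, each gene by its brightest probe; coloured and named points passed the threshold (red higher, blue lower in UCP1). Ero1a, Nampt, C1qtnf12 and Cebpd were lower, and Apod and Rbp7 higher.

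Markers of the labelled cell type were present in both groups. Over all genes 4.05% were called. Of 7 measured adipocyte markers 1 fell, the glucose transporter Slc2a4 (1.67-fold, limma, adjusted p = 0.0152), a call that ended without UCP1 array 3 (0.114) or control array 1 (0.0635). Its dimmer probe had -0.44 and was not called (limma, adjusted p = 0.2). The median of the 7 was -0.14, and 0.089 after quantile normalization. The summed intensity of the 7 was 1607 to 2367 on the UCP1 arrays and 2010 to 2346 on the control arrays, with the lowest sum on UCP1 array 3. Lipe was the 1 adipocyte marker under 1 on every array. Of 7 preadipocyte and fibroblast markers 2 rose, Thy1 (1.74-fold, limma, adjusted p = 0.0319) and Pdgfra (1.59-fold, limma, adjusted p = 0.0484), and the median of the 7 was 0.34. After quantile normalization 3 were called as higher and the median was 0.52. Dlk1, counted by its brighter probe, had 0.34 there (limma, adjusted p = 0.323), while its dimmer probe was higher in UCP1 by 1.08 (limma, adjusted p = 0.00526). The sum of the 7 was 682 to 884 on the UCP1 arrays and 665 to 896 on the control arrays, of which the collagen gene Col3a1 alone gave 511 to 669 on the UCP1 arrays and 532 to 734 on the control arrays. The dimmer probe of Pdgfra had 0.16 and was not called. The call of Thy1 ended without UCP1 array 3 or control array 2 or 3 (adjusted p = 0.0668 to 0.126), and that of Pdgfra without UCP1 array 3 or any 1 control array (adjusted p = 0.109 to 0.161). Of 5 macrophage markers 1 rose, the lysozyme Lyz2 (2.80-fold, limma, adjusted p = 0.00571). Adgre1, Ptprc and Itgam read at most 0.303 on the UCP1 arrays and 0.334 on the control arrays. Cd14 was brighter, at 11.4, 10.5 and 10.6 on the UCP1 arrays, against 13.9, 14.4 and 9.99 on the control arrays. It was not called (limma, adjusted p = 0.482). The sum of the 5, most of it from Cd14, was 13.8 to 14.9 on the UCP1 arrays and 11.0 to 16.2 on the control arrays. All 5 endothelial markers read under 1 on every array, with sums of 1.24 to 1.998 on the UCP1 arrays and 1.10 to 1.62 on the control arrays, and 4 of 5 skeletal muscle markers did so, with sums of 4.52 to 6.65 on the UCP1 arrays and 7.20 to 8.70 on the control arrays. The part of these markers in the adipokine differences was not tested.

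The genes whose levels over the 6 arrays were most like those of Lep were Mark1, Ndrg4 and Fam111a, each with a Pearson correlation of 0.993 to 0.996 among 12049 probes. Those most like Apln were Fam107b, Cab39l and Ttc17 (0.997 to 0.998), and those most like Adipoq were Nrbp1, Ing4 and Jrk (0.973 to 0.989). The points are 6 arrays in 2 groups, so a shared difference between the groups raises the correlation with Lep or Apln. Adipoq overlapped between the groups, with a log2 difference of -0.12. Adipoq, Nrbp1, Ing4 and Jrk all read lowest on UCP1 array 3. Picking the highest of 12049 correlations over 6 points gives high values by the choice itself, for each of these adipokines. Of the 12049 probes 139 exceeded 0.95 with Lep, 595 with Apln and 17 with Adipoq.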

How the data were processed

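The authors hybridised biotin-labelled total RNA to CodeLink mouse whole genome arrays, per the labels, and deposited one-colour spot intensities on a linear scale with array medians near 1. The sources used here do not give the scanner software, the background correction or how arrays were scaled. A code of -9999 was treated as missing, at 116 to 125 probes per array. Values at or below 0, at 80 to 159 probes per array, were set to the array's smallest positive value before log2. Probes with at least 2 values per group were tested, 36116 of 36227. Groups came from the source field of the labels, which names uncoupling protein 1 for all 3 UCP1 arrays; the digits that end their titles were read as replicate numbers. Names came from the platform annotation, where 21615 probes had 1 symbol, 681 several and 13931 none, and 21487 of the first matched RefSeq (GRCm38.p6) by gene identifier. Differences were tested two-sided with lmFit and eBayes (intensity trend) of limma 3.58.1, run under R 4.3.3, with p-values adjusted by Benjamini-Hochberg over all tested probes at 0.05. The fit was tested on simulated data. With 3 arrays per group, their number limits the precision, and an exact permutation test of 1 probe cannot go below p = 0.1.

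The adipokines, the 6 gene lists and the tests were chosen with earlier results of these data known. Of 135 list entries, cell type markers included, 115 were measured, each by its brightest probe. All adipokine probes were named, and from each list the called members, up to 6, or, with none called, the 2 of smallest p; Lpl, Dlk1 and Col3a1 were named after their values were seen. The 3 genes most like a called adipokine or Adipoq were taken by Pearson correlation among probes at or above the median level. The alternatives were an offset of 0.171 before log2, quantile, cyclic loess and median scaling, probes at or above the median level, complete probes, robust eBayes, eBayes with no trend, weights per array, a test of each probe on its own spread, blocking on replicate number, leaving each array out, and, for lists, the mean of a gene's probes. The fit with no trend on probes at or above the median level was added after seeing the data.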

Additional observations from a re-analysis of the deposited data

How the results depend on the processing

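In the deposited scaling 1021 probes were called, 289 higher and 732 lower in UCP1, but quantile normalization gave 567 higher and 446 lower and cyclic loess 517 higher and 460 lower. The number of called probes was 2239 on probes at or above the median level, 1811 with array weights, 2135 on those at or above the median level without the trend (added after seeing the data), 3 when each probe was tested on its own spread (4818 at an unadjusted p under 0.05), and 159 (without UCP1 array 3) to 1896 (without UCP1 array 2) with 1 array left out. With limma without the trend 0 probes passed (4951 at an unadjusted p under 0.05). Of the 7 adipokines, 2 in the main setting, 1 was called after quantile normalization and 1 after cyclic loess (Lep in both), 0 without the trend (3 unadjusted) and 0 on each probe's own spread (2 unadjusted), and 0 to 3 with 1 array left out, the 0 being without UCP1 array 3. List genes called, 6 in the main setting, numbered 10 after quantile normalization, 10 with robust eBayes and 10 with array weights. They numbered 0 without the trend (17 unadjusted) and 0 on each probe's own spread (17 unadjusted). With 1 array left out they numbered 3 (without UCP1 array 3) to 11 (without UCP1 array 2). At or above the median level 12 were called with or without the trend, out of fewer list genes. For example, 3 of the 9 measured receptors and 19 of the 25 other secreted factors remained there. The rise of Ucp1, 3.00 on the log2 scale and 2.35 with the offset, lost its call without the trend (adjusted p = 0.0855) and on its own spread (adjusted p = 0.132), and was too dim for the median-level filter, as was Rbp4. Signs turned for Adipoq after quantile normalization (0.043) and cyclic loess (0.22), with -0.21 to 0.014 as arrays were left out, for Retn (0.35 and 0.30, and -0.094 to 0.084), and for Rarres2 (0.15 and 0.079). The cause was not tested. In the fit with a replicate block 776 probes and 2 adipokines were called. Deviations of same-numbered arrays correlated at -0.31, -0.035 and 0.083, and those of differently numbered arrays at -0.38 to 0.41. With 3 arrays per group these values do not show whether the numbers pair the arrays. Intensities near the array maximum may limit what Adipoq can show, and dim signal limits Rbp4.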
